A study of Mus musculus with 12 samples.

Results

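The genes described here encode the ephrins and Eph receptors, the semaphorins with their plexin and neuropilin receptors, the Slits with their Robo receptors, and the netrins. They were taken as every protein-coding gene whose mouse symbol belongs to the series Epha, Ephb, Efna, Efnb, Sema3 to Sema7, Plxna to Plxnd, Nrp1 and Nrp2, Slit1 to Slit3, Robo1 to Robo4 or Ntn, without Efnb2 and Ephb2, that had 10 or more counts summed over 12 libraries. The rule used no difference between conditions, and it gave 61 genes of the 54232 gene IDs in the count tables, 17089 of which were protein-coding with 10 or more counts. The 61 genes were 9 Epha and 4 Ephb receptors, 5 Efna and 2 Efnb ephrins, 7 class 3, 6 class 4, 2 class 5, 4 class 6 and 1 class 7 semaphorins, 9 plexins, 2 neuropilins, 3 Slits, 4 Robos and 3 netrins.

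The RNA came from mouse eye organoids, aggregates grown from embryonic stem cells that form optic vesicles in culture. All 12 libraries share a genotype labelled Rax-GFP knockin hets, in which 1 copy of Rax, a transcription factor gene of the eye field, carries green fluorescent protein, and all were collected on Day 7. Control organoids received neither agent, LDHi organoids received GNE-140, an inhibitor of lactate dehydrogenase, for 3 days, and LDHi+lactate organoids received GNE-140 together with lactate; the labels describe a 12 hour lactate pretreatment before GNE-140. Each condition had 4 libraries, numbered 1 to 4, from whole organoids of a single stem cell line, and p-values measure the spread between these libraries. The methods describe the organoids as harvested in independent experiments, and the labels do not say which library came from which. The cell type label reads eye organoid for replicates 1 and 2 (set 1) and retina progenitors for replicates 3 and 4 (set 2), with no statement of a sort. Total counts ran from 37284585 to 48271386 in set 1 and from 22174002 to 29919036 in set 2, and the 61 genes took 0.238 to 0.398% of the counts of a library. In bulk RNA, fewer cells of a type and less RNA per cell cannot be told apart.

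Guidance ligands are read by receptors on the growth cone or cell surface, which reorganise the actin cytoskeleton and make a cell or axon turn away, stop, adhere or advance. Ephrins are membrane-bound and signal on contact with Eph receptor tyrosine kinases, the A class through a lipid anchor and the B class through a transmembrane tail. Class 3 semaphorins are secreted and bind neuropilins, which pair with plexins for signalling, whereas semaphorins of classes 4 to 7 are held at the membrane and mostly bind plexins directly. Slits repel through Robo receptors and netrins act through DCC and UNC5 receptors. In the early eye, Eph and ephrin boundaries keep the eye field apart from the neighbouring forebrain, and later the same families set the map of retinal axons.

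RefSeq promoter windows (GRCm38.p6, 250 bases before to 50 bases after an annotated start) were found for 53 of the 61 genes, in 69 windows. Those of 4 genes on which the results turn, Sema5a, Sema3a, Plxna2 and Plxnd1, are printed 5′ to 3′ on the strand of the gene, with capitals marking GGGCGG or its reverse complement, the core of a GC box. No window was found for Efnb3, Ntn1, Plxna1, Plxna4, Sema3b, Sema3f, Sema6a and Slit1.
Sema5a (chr15:32244563-32244862, plus strand): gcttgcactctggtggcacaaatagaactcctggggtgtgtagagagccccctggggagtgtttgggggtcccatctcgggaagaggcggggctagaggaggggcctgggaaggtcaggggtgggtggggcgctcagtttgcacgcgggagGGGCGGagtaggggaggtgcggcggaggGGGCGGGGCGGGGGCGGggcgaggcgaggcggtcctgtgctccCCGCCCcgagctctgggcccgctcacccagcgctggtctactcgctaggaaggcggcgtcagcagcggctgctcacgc
Sema3a (chr5:13396534-13396833, plus strand): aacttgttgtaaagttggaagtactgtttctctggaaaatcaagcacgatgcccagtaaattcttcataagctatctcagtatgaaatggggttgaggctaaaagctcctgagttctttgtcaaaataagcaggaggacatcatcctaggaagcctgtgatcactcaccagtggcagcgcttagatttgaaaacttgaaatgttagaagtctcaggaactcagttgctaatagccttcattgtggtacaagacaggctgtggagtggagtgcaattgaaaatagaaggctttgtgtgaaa
Plxna2 (chr1:194619579-194619878, plus strand): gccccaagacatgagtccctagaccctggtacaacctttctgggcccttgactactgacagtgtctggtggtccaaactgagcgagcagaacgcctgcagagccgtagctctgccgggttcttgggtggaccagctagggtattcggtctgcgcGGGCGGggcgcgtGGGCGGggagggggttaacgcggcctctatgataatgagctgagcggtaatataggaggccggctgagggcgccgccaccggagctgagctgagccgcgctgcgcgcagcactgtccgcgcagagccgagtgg
Plxnd1 (chr6:115994956-115995255, minus strand): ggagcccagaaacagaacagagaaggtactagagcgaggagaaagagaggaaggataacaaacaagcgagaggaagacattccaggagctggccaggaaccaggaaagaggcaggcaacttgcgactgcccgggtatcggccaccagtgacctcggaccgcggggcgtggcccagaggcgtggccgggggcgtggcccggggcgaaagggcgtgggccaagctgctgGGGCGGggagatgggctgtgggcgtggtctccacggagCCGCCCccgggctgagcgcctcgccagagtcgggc
The Sema3a window lies at an annotated start within the GENCODE gene (13125414 to 13602565 on chromosome 5) and not at its 5′ end. The Plxna2 window likewise lies within its gene (194618218 to 194816869 on chromosome 1). The Sema3a window held 41.3% G and C and no GGGCGG, against 71.3% and 5 overlapping or separate matches for Sema5a, 64.7% and 2 for Plxna2, and 67% and 2 for Plxnd1. GGGCGG was searched on both strands and was present in 49 of the 69 windows (71%), against 35.7% of all 32851 windows in the table, and the median G and C content was 64% in the 69 windows and 52.7% in all. TAATTA, a homeodomain core, was present in 3 of the 69 (4.35%, against 5.29% of all), and CACGTG, an E-box, in 5 (7.25%, against 7.15%); none of the 4 windows printed held either. These matches describe the letters in the windows.

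Control organoids expressed most of these genes. The mean control level, in RPKM, counts scaled by library depth and by exon length from GENCODE, was at least 10 for 13 of the 61 genes, at least 1 for 50 and under 1 for 11, with a median of 4.45. The highest level was that of Efnb1, a transmembrane ephrin, at 57.4 RPKM ± 21.3 (SD, n = 4), which stood at percentile 95.1 of the protein-coding genes tested. Plxnb2, a receptor for class 4 semaphorins, followed at 44 ± 6.68 RPKM, and Efnb3 at 43.3 ± 1.1. The order of these 3 was within their spread. Plxna1 was at 30.4 ± 4.54, Ephb4 at 30.1 ± 3.03, Efna2 at 24.3 ± 8.6, Efna5 at 22.7 ± 10.2 and Plxnb1 at 20.2 ± 2.87 RPKM. The most abundant semaphorin of each class was Sema4c at 19.1 ± 1.65 RPKM, Sema3f at 10.2 ± 0.966, Sema6a at 8.98 ± 1.79, Sema5b at 6.77 ± 2.97 and Sema7a, alone in its class, at 2.06 ± 1.02. Epha4 was the most abundant Epha receptor at 12.8 ± 3.07 RPKM, and the leading members of the other families were Nrp2 at 7.26 ± 3.95, Slit2 at 6.7 ± 2.08, Robo1 at 6.57 ± 2.77 and Ntn1 at 5.5 ± 1.77 RPKM. Epha6, Ntn5 and Plxnb3 had 102, 43 and 50 counts in all, did not pass the filter on low counts and were not tested in edgeR. The DESeq2 fits were made without this filter and held all 61 genes. DESeq2 itself leaves genes of low mean count without an adjusted p. Without the block it gave one to 19464 genes for LDHi against control and to 18176 in the other comparisons. How many of the 61 were among them was not counted.

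**Figure D1:**
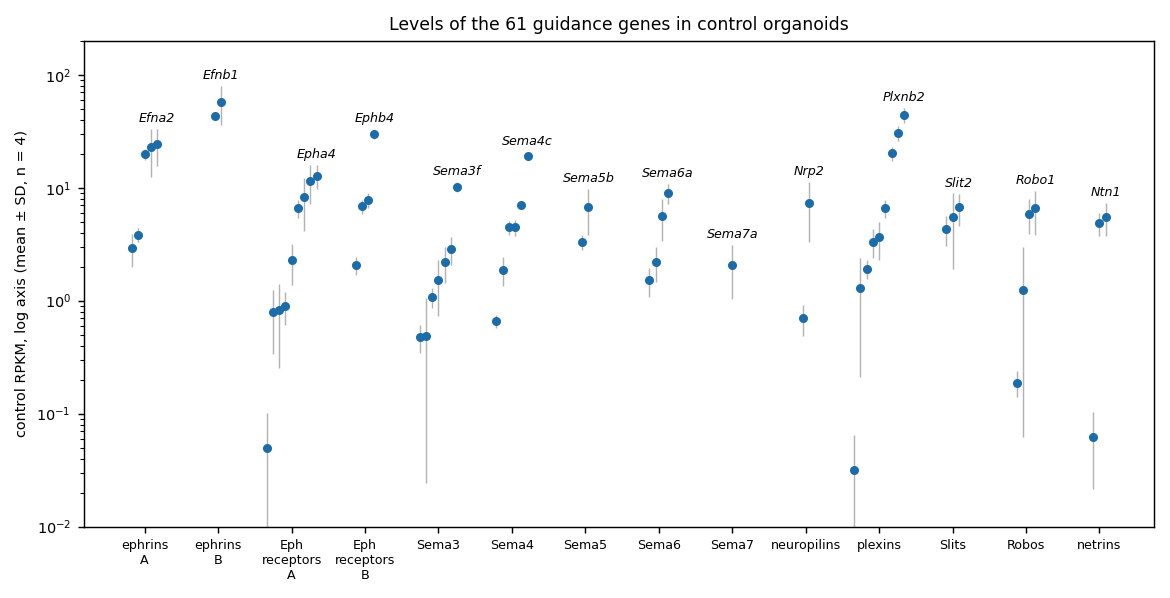
Control levels of the 61 guidance genes by family. The vertical axis gives RPKM on a log scale, each point is the mean of 4 control libraries with its SD (lower bars that would pass 0 are cut short), genes are sorted within a family, and the most abundant gene of each family is named. Efnb1, Plxnb2 and Efnb3 stand highest, and Plxnb3, Epha6 and Ntn5 lowest.

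LDHi organoids against control organoids asked which guidance genes change when lactate dehydrogenase is inhibited. Semaphorins and plexins made up all of the edgeR calls without the replicate block. Of the 58 genes tested, 6 were lower and 1 was higher at an adjusted p under 0.05 (10.3% and 1.72%), whereas 2.18% of all 17721 genes tested were lower and 0.909% higher. Sema5a, Sema3f, Sema3b, Sema4g, Plxna2 and Plxnd1 fell and Sema4b rose. The median log2 fold change of the 58 was -0.13, against 0.009 over all genes tested, and 38 of the 58 had a negative value. An unadjusted p under 0.05 was found for 19 of the 58 and for 2916 of all 17721 genes. Libraries with the same number deviated together, and once the replicate numbers entered the fit as blocks, 18 were called lower and 4 higher (31% and 6.9%), against 10.1% and 9.85% of all genes. DESeq2 without the block, fitted to all 61 genes, called 10 lower and 2 higher, against 4.39% and 2.45% of the genes it tested. By level alone, every LDHi library lay below every control library in 9 of the 58 genes and above in 2, against 5.41% and 4.26% of all genes.

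The 6 members called lower without the block were 4 of the 20 semaphorins and 2 of the 8 plexins tested. Sema5a encodes a transmembrane semaphorin with thrombospondin repeats that can attract or repel and that limits neurite growth in the retina. It was at 69.5, 49.2, 67.9 and 59.8 CPM (counts scaled by TMM-adjusted library size) in control replicates 1 to 4, at 25.8, 23.5, 24.9 and 33.7 CPM with LDHi, and at 52.7, 32.8, 58.8 and 45.7 CPM with LDHi+lactate. All 4 LDHi libraries lay below all control libraries. The log2 fold change of LDHi against control was -1.19 ± 0.18 (SE), with an adjusted p of 0.011, and it was -1.27 in set 1 and -1.14 in set 2. The other class 5 gene, Sema5b, did not pass the test (0.75 ± 0.53), and its values ran from 29.8 to 68.4 CPM in control and from 26.2 to 137 CPM in LDHi libraries.

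Sema3f and Sema3b encode secreted repellents that act through neuropilins, and they lie 72271 bases apart on chromosome 9, Sema3b at 107597674 to 107609229 and Sema3f at 107681500 to 107710475 (mm10, both on the minus strand). Sema3f was at 54.1, 47.1, 52.2 and 59.3 CPM in control libraries and at 25.2, 28.2, 27.6 and 25.6 CPM with LDHi, groups that did not overlap and differed little within. It fell with a log2 fold change of -1.0 ± 0.16, adjusted p = 0.0129. Sema3b was at 12.2, 6.38, 14.6 and 8.86 CPM in control and at 4.68, 3.36, 4.93 and 4.11 CPM with LDHi, again with no overlap. Its fold change was -1.30 ± 0.29 on the log2 scale, adjusted p = 0.033. The Sema3f and Sema5a calls held with any 1 library left out, while the Sema3b call was lost without control replicate 1 or 3 or without any 1 LDHi library, at adjusted p from 0.0625 to 0.114. Within sets, Sema3f was at -0.92 and -1.08 and Sema3b at -1.21 and -1.39 on the log2 scale.

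Sema3a, the repellent that collapses growth cones of many sensory and cortical axons, had the largest negative estimate of the 58 genes, -1.89 ± 0.54, but an adjusted p of 0.0805 without the block. Control libraries were at 17.7, 11.3, 36.6 and 18.8 CPM, LDHi libraries at 2.55, 3.12, 11.3 and 6.03 CPM, and LDHi+lactate libraries at 7.69, 13.4, 30.4 and 17.2 CPM. Replicate 3 was the highest library in each condition, and each LDHi library lay below the control library of its number. With the replicate block the log2 fold change was -2.01 ± 0.22, adjusted p = 0.00038, and the call held with any 1 replicate left out. Sema3d, which lies 536466 bases from Sema3a on chromosome 5, was at -0.80 ± 0.18 with the block, adjusted p = 0.0111, a call lost without replicate 1 (adjusted p = 0.051). Sema3e, the next gene on the other side of Sema3a, was at -0.72 ± 0.29 (adjusted p = 0.112), Sema3c at 0.20 ± 0.21 and Sema3g at -0.33 ± 0.74, so that 4 of the 7 class 3 genes fell with the block and 3 did not pass. Without the block, DESeq2 called 3 of the 7 class 3 genes lower and edgeR called 2.

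Class 4 semaphorins, membrane proteins that bind B and other plexins, went both ways. Sema4g was at 43.7, 32.7, 35.6 and 42.2 CPM in control and at 28.1, 23.8, 20.4 and 28.9 CPM in LDHi libraries. Sema4b was at 37.7, 38.5, 38.9 and 43.8 CPM in control and at 50.3, 50.4, 57.7 and 56.2 CPM in LDHi libraries. Neither gene overlapped between the groups. Sema4g fell (-0.61 ± 0.13, adjusted p = 0.031) and Sema4b rose (0.43 ± 0.10, adjusted p = 0.0312). Sema4g lost its call when control replicate 1, 3 or 4 was left out, and when LDHi replicate 2 or 3 was (adjusted p from 0.0637 to 0.102), and Sema4b when control replicate 1, 2 or 3 was, and when LDHi replicate 2, 3 or 4 was (0.0505 to 0.106); with the block both held with any 1 replicate left out. In edgeR Sema4f passed with the block only, at -0.79 ± 0.14, adjusted p = 0.00412 (adjusted p = 0.1 without it). DESeq2 also called Sema4f without the block. Sema4a, Sema4c and Sema4d lay between -0.17 and 0.05 on the log2 scale. Of the class 6 genes, Sema6c (-0.65 ± 0.13, adjusted p = 0.00786) and Sema6b (-0.44 ± 0.13, adjusted p = 0.0421) fell with the block. Their calls were lost without replicate 3 or 4 for Sema6c (0.0503 to 0.0601) and without replicate 2, 3 or 4 for Sema6b (0.0931 to 0.193). Sema6a, Sema6d and Sema7a did not pass in either fit. Over all 20 semaphorins tested, 4 were lower and 1 higher without the block and 9 lower and 1 higher with it, with a median log2 fold change of -0.55 without the block.

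**Figure D2:**
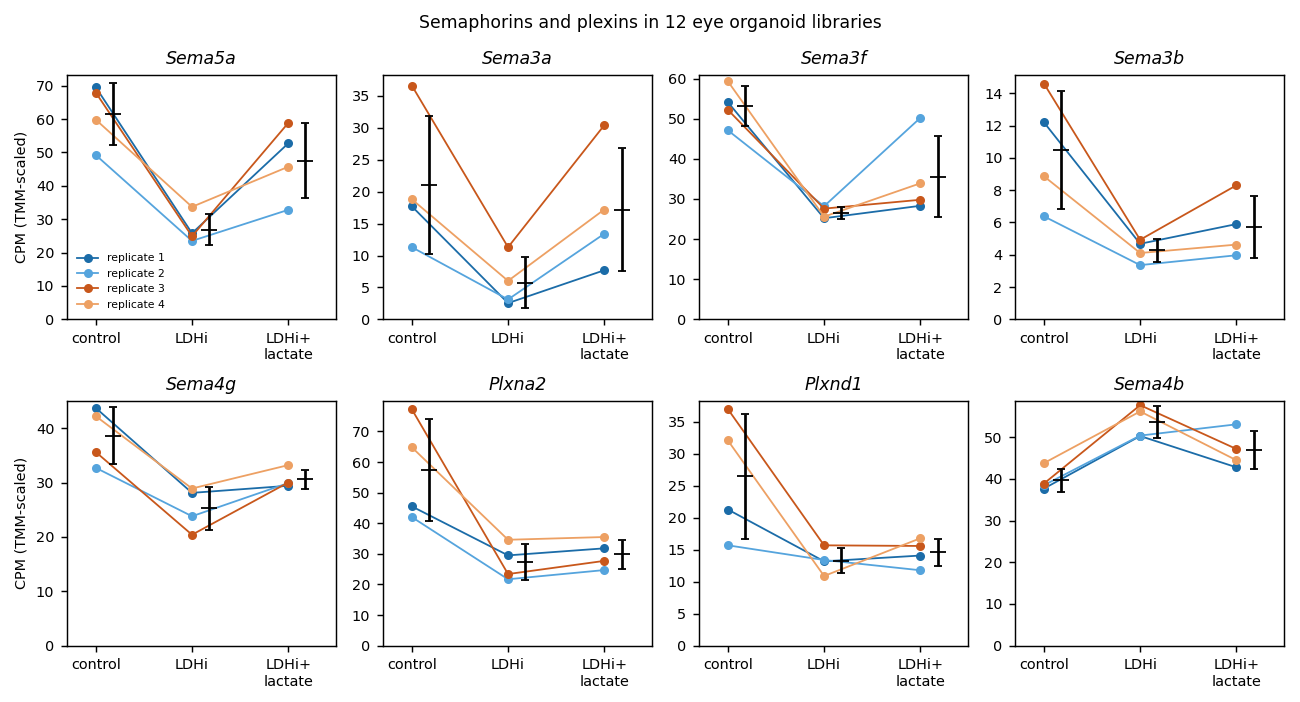
CPM values (vertical axes, from 0) of 8 genes in the 12 libraries, by condition. Points of 1 colour joined by a line share a replicate number, blue tones are set 1 and orange tones set 2, and the black marks are the mean ± SD of 4 libraries. In the first 7 panels the LDHi libraries lie below the control libraries, narrowly for Sema3a and Plxnd1, and those of Sema4b lie higher than control, and 6 of the 7, Plxnd1 being the exception, are higher with LDHi+lactate than with LDHi in each of 4 replicates; edgeR with the block called Sema5a and Sema3a in that comparison.

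The receptors of these ligands changed in part. Plxna2 encodes an A class plexin that pairs with neuropilins and also binds class 6 semaphorins. It was at 45.5, 42, 77.2 and 64.8 CPM in control, at 29.5, 21.7, 23.4 and 34.6 CPM with LDHi and at 31.8, 24.7, 27.7 and 35.5 CPM with LDHi+lactate. Both treated groups lay wholly below control, and the 2 treated groups overlapped. With LDHi its log2 fold change was -1.07 ± 0.21, adjusted p = 0.0217. Plxnd1, the receptor of Sema3e known from blood vessel patterning, was at 21.3, 15.7, 37 and 32.1 CPM in control and at 13.2, 13.4, 15.7 and 10.9 CPM with LDHi, where the lowest control library and the highest LDHi library were nearly level. Its log2 fold change was -1.0 ± 0.24, adjusted p = 0.0444, and was smaller in set 1 (-0.48) than in set 2 (-1.39), a difference that did not pass the test of the interaction (adjusted p = 0.89). Plxna2 lost its call when control replicate 3 was left out, and when LDHi replicate 2 or 3 was (adjusted p from 0.0641 to 0.0746), and that of Plxnd1 without any 1 library other than control replicate 2 and LDHi+lactate replicate 2 (0.0596 to 0.131). With the block both were called whichever replicate was left out.

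Plxna4, a further partner of neuropilins in sensory axons, fell with the block by a log2 fold change of -1.19 ± 0.29 (adjusted p = 0.0152, and 0.256 without it). Its control values, 7.76, 4.59, 22.2 and 38 CPM, were far higher in replicates 3 and 4, and the call was lost without either (0.0942 to 0.0963). Plxna1 (0.23 ± 0.05, adjusted p = 0.0126) and Plxnc1, the receptor of Sema7a (0.39 ± 0.11, adjusted p = 0.0351), rose with the block only, in edgeR and in DESeq2, and the edgeR calls were lost without replicate 1 or 2 for Plxna1 (0.0598 to 0.108) and without any 1 replicate for Plxnc1 (0.0503 to 0.149). Plxnb1, Plxnb2 and Plxna3 had log2 fold changes between -0.10 and 0.00. The neuropilins did not pass. Nrp2 ran from 34.9 to 147 CPM in control and from 32.5 to 63.7 CPM in LDHi libraries (-0.71 ± 0.23 with the block, adjusted p = 0.0547), and Nrp1 was at 0.19 ± 0.19.

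In edgeR no ephrin or Eph receptor passed without the block. With it 4 of the 19 tested were lower and 1 was higher, where 10.1% of all genes were lower and 9.85% higher. DESeq2 without the block called Epha10 lower and Ephb1 higher. Efna5, a lipid-anchored ephrin that forms the tectal gradient read by retinal axons, was at 71.1, 57.5, 151 and 87 CPM in control and at 39.5, 28.5, 68.4 and 65.4 CPM in LDHi libraries, lower in each of the 4 replicates although the groups overlapped. Its log2 fold change was -0.86 in both fits, with an SE of 0.38 and adjusted p of 0.272 without the block and an SE of 0.11 and adjusted p of 0.000753 with it. Ephb4, the ephrin-B receptor best known from veins, was at 133, 130, 161 and 136 CPM in control and at 104, 104, 129 and 114 CPM with LDHi. The groups did not overlap, and with the block the log2 fold change of -0.31 ± 0.04 had an adjusted p of 0.00113 (0.139 without). Both calls held with any 1 replicate left out. Ephb1, which steers ipsilateral retinal axons at the chiasm, rose from 12.6, 12, 16.1 and 17.3 CPM in control to 24.7, 20.3, 19.1 and 19.2 CPM with LDHi, with a blocked log2 fold change of 0.54 ± 0.13 and an adjusted p of 0.0161 (0.0908 without). It was called neither without replicate 1 nor without replicate 2 (0.085 to 0.11). The log2 fold change of Ephb1 was 0.87 in set 1 and 0.18 in set 2. That difference did not pass the test of the interaction (unadjusted p = 0.00952, adjusted p = 0.89). Epha10 (-1.41 ± 0.32, adjusted p = 0.0118) and Epha8 (-0.76 ± 0.22, adjusted p = 0.0366) fell with the block from control means of 6.44 and 3.72 CPM. The Epha10 call was lost without replicate 3 (0.0732) and that of Epha8 without replicate 1, 3 or 4 (0.0811 to 0.18). The abundant Efnb1 was at 276, 149, 123 and 244 CPM in control and at 366, 326, 113 and 219 CPM with LDHi, a log2 fold change of 0.33 ± 0.18 with the block that did not pass (adjusted p = 0.229). Efna1, Efna2, Efna3, Efna4, Efnb3, Epha1 to Epha5, Epha7, Ephb3 and Ephb6 did not pass either, Epha6 being untested in edgeR.

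Slit1, a secreted repellent of retinal ganglion cell axons, was at 19.7, 10.8, 41.9 and 57.1 CPM in control and at 12.7, 9.24, 7.32 and 14.9 CPM in LDHi libraries, so that the difference was widest in replicates 3 and 4. With the block it fell by a log2 fold change of -1.32 ± 0.33, adjusted p = 0.0182 (0.142 without), a call lost without replicate 3 or 4 (0.0851 to 0.0944). Its log2 fold change was -0.47 in set 1 and -2.16 in set 2, and the difference did not pass (adjusted p = 0.89). DESeq2 without the block called 1 of the 3 Slits lower. Robo1, the main Slit receptor of commissural neurons, fell with the block by -0.64 ± 0.14 (adjusted p = 0.0114, and 0.283 without), and the call was lost without replicate 1 or 4 (0.0675 to 0.0716). The other 5 Slit and Robo genes did not pass in edgeR, and Robo3 was the least even of them, with 1.2 to 26.4 CPM in control libraries and no counts in LDHi+lactate replicate 3. Robo4 and Robo3 lie 554 bases apart on chromosome 9. Ntn1, the diffusible cue of the ventral midline and optic disc, was at 34.5 ± 11.1 CPM in control and 42.3 ± 1.72 CPM in LDHi organoids (0.33 ± 0.19 with the block, adjusted p = 0.248), and Ntn4 was at -0.01 ± 0.12. Across all 22 genes called with the block, the sign was the same in set 1 and set 2, as it was for 36 of the 58 tested. The 22 were called from these same libraries, and the block favours changes shared by replicates, so their agreement is no independent test.

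**Figure D3:**
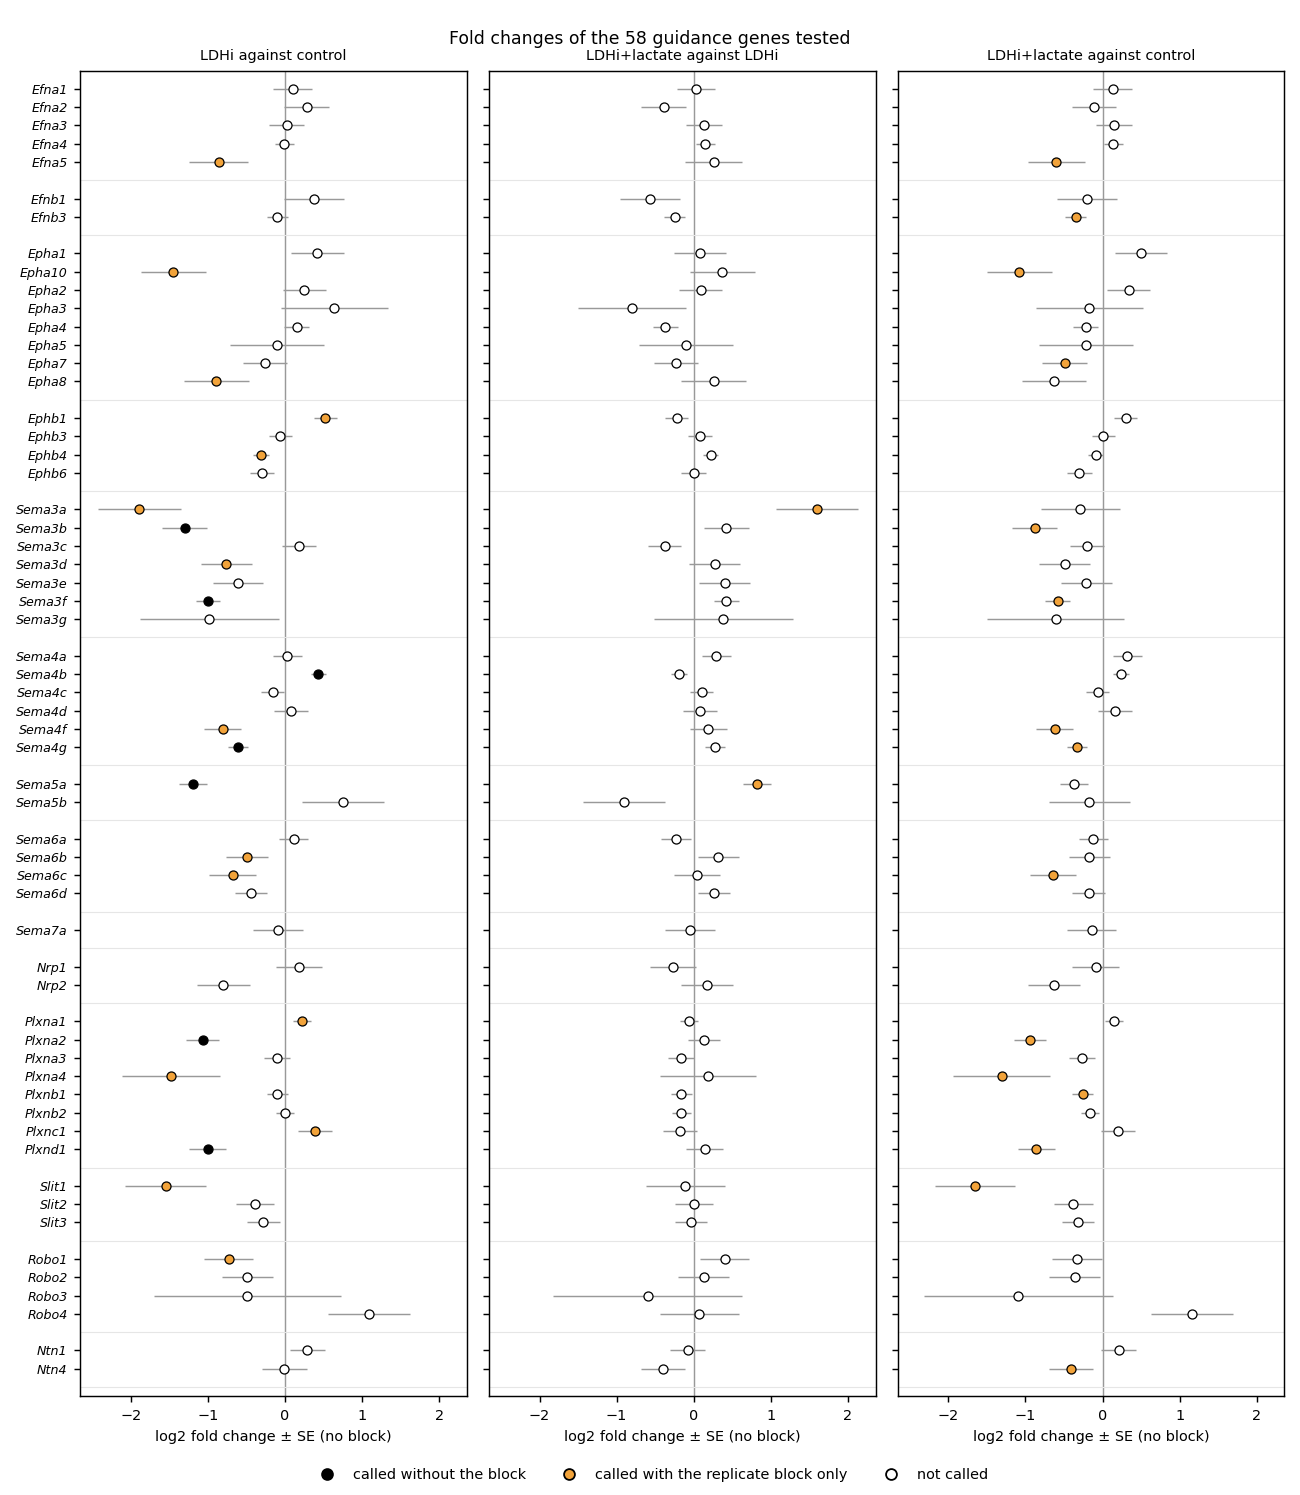
Log2 fold changes with their SE (horizontal axes, fit without the block) of the 58 guidance genes tested, by family from ephrins to netrins, in the 3 comparisons. Black points were called by edgeR without the block, orange points with the replicate block only, and white points in neither fit. Black points appear for LDHi against control only, where 6 lie left and 1 right of 0, and with lactate against LDHi the orange points are Sema3a and Sema5a.

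Partners of these families were read from a list of 73 receptors, co-receptors, adhesion partners and cytoplasmic effectors. In LDHi against control 3 of the 73 were lower and 0 higher (4.11% and 0%) without the block, with 13 at an unadjusted p under 0.05, and 14 were lower and 1 higher with it (19.2% and 1.37%), against the shares of all genes given above. Ngef, an exchange factor that acts downstream of EphA receptors, fell by a log2 fold change of -1.21 ± 0.23 (adjusted p = 0.0204), Vav3 by -1.06 ± 0.26 (adjusted p = 0.0454), and Kdr, a VEGF receptor that also marks endothelium, by -1.27 ± 0.31 (adjusted p = 0.0444). With the block, the netrin receptors Unc5a (-0.75 ± 0.11, adjusted p = 0.00144) and Unc5b (-0.68 ± 0.13, adjusted p = 0.00506) fell, and Rnd1, a GTPase that binds plexins, rose (0.60 ± 0.14, adjusted p = 0.0124).

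Cell type markers moved in the same comparison. The summed level of 11 optic vesicle and retina progenitor markers, all of them present in control libraries, was 886 to 1620 CPM in control, 614 to 678 with LDHi and 797 to 1136 with LDHi+lactate, and 5 of the 11 were lower with LDHi without the block. Among 9 mesenchyme and neural crest markers 4 were lower (186 to 753, 122 to 195 and 145 to 189 CPM in the 3 conditions), and among 7 pluripotent cell markers 4 were higher (223 to 461, 541 to 993 and 463 to 959 CPM). None of 7 telencephalon or 8 neuron markers was called (210 to 291, 214 to 422 and 140 to 321 CPM, and 125 to 660, 182 to 649 and 117 to 461 CPM). Of 6 endothelial markers, summing to 42.9 to 66, 58.7 to 118 and 68.3 to 107 CPM, Kdr was lower and Pecam1, which stem cells also express, was higher. Nkx2-1 of the telencephalon list was under 0.5 CPM in all 3 conditions, Pou4f2 of the neuron list and Emcn in both treated conditions, and Tie1 with LDHi+lactate. LDHi replicate 3, in which Sema3a was highest among LDHi libraries, also held the most Rax of that group, 13.2 CPM against 4.15 to 4.65 in the other 3. With the block 10 of the 11 optic vesicle and 6 of the 9 mesenchyme and neural crest markers were lower and all 7 pluripotent cell markers were higher. The part of these shifts in cell type markers in the changes of the guidance genes was not tested.

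LDHi+lactate against LDHi asked which of these genes change when lactate is supplied under the inhibitor. Sema3a and Sema5a, which had fallen with LDHi, rose with lactate, and in edgeR both were called with the replicate block only. Without it 0 of the 58 were called in either direction by edgeR, as were 0% of all genes tested higher and 0% lower, 4 of the 58 and 603 of all 17721 genes had an unadjusted p under 0.05, and DESeq2 called 1 higher, Sema5a, and 0 lower, against 0.303% and 0.011% of all genes. The block gave 2 higher and 0 lower (3.45% and 0%), against 0.57% and 0.0677%. Because LDHi libraries enter both this and the first comparison, low values there push the estimates in opposite directions, and the results are not independent of each other.

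Sema3a was higher with lactate than with LDHi in 4 of 4 replicates, with a blocked log2 fold change of 1.66 ± 0.22 (adjusted p = 0.0142), 1.89 in set 1 and 1.47 in set 2. Its call was lost without replicate 2 or 3 (adjusted p from 0.0712 to 0.128). Sema5a was likewise higher in 4 of 4, at 0.79 ± 0.12 (adjusted p = 0.0248), 0.80 in set 1 and 0.84 in set 2, and the call was lost without replicate 1, 2 or 3 (0.0745 to 0.187). Sema3f and Sema4g were the genes whose LDHi+lactate libraries all exceeded all LDHi libraries, 2 of the 58 against 1.51% of all genes, and 0 lay wholly below (0.587%). Sema3f was at 28.3, 50.2, 29.8 and 33.9 CPM with lactate, and its blocked log2 fold change of 0.40 ± 0.15 did not pass (adjusted p = 0.33). Sema4g was at 29.4, 29.9, 30 and 33.2 CPM (0.28 ± 0.09, adjusted p = 0.233), and Ephb4 came closest to the threshold of those not called (0.22 ± 0.04, adjusted p = 0.0605). Plxna2 and Plxnd1, which had fallen, were at 0.14 ± 0.15 and 0.11 ± 0.18, and neither passed. Efnb1 (-0.58 ± 0.18, adjusted p = 0.23), Sema5b (-0.97 ± 0.26, adjusted p = 0.164) and Epha3 (-1.06 ± 0.30, adjusted p = 0.186) were lower with lactate in each of the 4 replicates without passing. Of the 73 partners 0 were called without the block, with 8 at an unadjusted p under 0.05, and 1 with it, Grb10, an adaptor protein (0.89 ± 0.14, adjusted p = 0.0248). Of the 11 optic vesicle markers, 5 were higher with the block.

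LDHi+lactate against control asked which genes differed from untreated organoids under both agents. Without the block 0 of the 58 were called by edgeR, and 0% of all genes in either direction, with 11 of the 58 and 1653 of all 17721 genes at an unadjusted p under 0.05. DESeq2 called 2 lower, Plxna2 and Plxnd1, and 0 higher, against 0.66% and 0.638% of all genes. With the block 15 were lower and 0 higher (25.9% and 0%), against 3.87% and 4.18% of all genes. These 15 were the plexins Plxna2, Plxnd1, Plxna4 and Plxnb1, the semaphorins Sema3b, Sema3f, Sema4f, Sema4g and Sema6c, the ephrins Efna5 and Efnb3, the receptors Epha7 and Epha10, and Slit1 and Ntn4. The count was 1 to 8 with 1 replicate left out, where 51 to 344 of all genes were called lower. Of the 15, Plxnb1, Efnb3, Epha7 and Ntn4 had not been called for LDHi against control in either edgeR fit. Each of these was lower with LDHi+lactate than with LDHi in every replicate. Cell type markers moved here too: with the block 6 of the 7 pluripotent cell markers and 1 endothelial marker were higher than control, and 3 of the 9 mesenchyme and neural crest and 1 of the 11 optic vesicle markers were lower, and their part in the result was not tested. The control libraries enter here and in the first comparison, so the estimates share their error.

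Plxna2 was lower by -0.92 ± 0.15 on the log2 scale (adjusted p = 0.0107), Plxnd1 by -0.81 ± 0.18 (adjusted p = 0.0279), Plxna4 by -1.12 ± 0.28 (adjusted p = 0.0404) and Plxnb1, a receptor of Sema4d, by -0.26 ± 0.07 (adjusted p = 0.0473). Plxna2 was lost without replicate 4 (adjusted p = 0.0513), Plxnd1 without replicate 1, 3 or 4 (0.0786 to 0.133), and Plxna4 (0.0527 to 0.172) and Plxnb1 (0.0528 to 0.175) without any 1 replicate. The A plexin Plxna2 and the ephrin Efnb3 were the 2 genes with all LDHi+lactate libraries below all control libraries, against 2.11% of all genes, and 0 lay wholly above (2.12%). Efnb3, a midline barrier for corticospinal axons, was at 143, 137, 138 and 134 CPM in control and at 128, 104, 94.5 and 106 CPM with LDHi+lactate, and its log2 fold change was -0.37 ± 0.09 (adjusted p = 0.0369).

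Among the ligands, Slit1 had the largest estimate, with 9.58, 4.72, 7 and 19.8 CPM in LDHi+lactate libraries and a log2 fold change of -1.63 ± 0.33 (adjusted p = 0.02), lost without replicate 1, 3 or 4 (0.0598 to 0.0736). Sema3b was at -0.87 ± 0.14 (adjusted p = 0.00956) and lost without replicate 1 (0.0679). Sema3f was at -0.61 ± 0.15 (adjusted p = 0.0346), with replicate 2 above its control, and lost without replicate 1, 3 or 4 (0.14 to 0.146). Efna5 was at -0.61 ± 0.11 (adjusted p = 0.0142, lost without replicate 1, 2 or 3 at 0.0544 to 0.0775) and Sema4f at -0.59 ± 0.14 (adjusted p = 0.0347, lost without replicate 1, 3 or 4 at 0.111 to 0.14). Sema6c (-0.61 ± 0.13, adjusted p = 0.0268), Sema4g (-0.32 ± 0.09, adjusted p = 0.0496), Ntn4 (-0.46 ± 0.12, adjusted p = 0.0482), Efnb3 and Epha10 (-1.19 ± 0.31, adjusted p = 0.0451) were lost without any 1 replicate, at 0.0502 to 0.207. Epha7, an EphA receptor of the forebrain and tectum, was lower in 4 of 4 replicates, at -0.47 ± 0.09 (adjusted p = 0.0197), and lost without replicate 1, 3 or 4 (0.0523 to 0.0848). Sema5a (-0.39 ± 0.12, adjusted p = 0.0754) and Sema3a (-0.35 ± 0.21, adjusted p = 0.322), the genes that rose with lactate, were not called against control. Of the 73 partners 0 were called without the block, with 6 at an unadjusted p under 0.05, and 6 were lower and 1 higher with it. For all 15 genes called, the sign was the same in both sets, as it was for 47 of the 58. Those 15 were also called from these libraries, so their agreement is no independent test.

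The library sets also differed, in genes other than the 7 called for LDHi without the block. With treatment in the fit, 13 of the 58 genes were higher in set 2 than in set 1 and 0 were lower, with 23 at an unadjusted p under 0.05 (6987 of all 17721 genes). Of all genes, 27.9% differed in either direction, a larger share than among the 58, and the unadjusted shares were nearly equal. The split of all genes by direction was not counted, so the direction of the 13 cannot be set against it. The largest estimates were those of Plxna4 (1.34 ± 0.38, adjusted p = 0.0234), which ran from 2.84 to 7.76 CPM in set 1 and from 6.17 to 38 CPM in set 2, and Sema3a (1.23 ± 0.26, adjusted p = 0.00514), from 2.55 to 17.7 and from 6.03 to 36.6 CPM. Efna5 was higher in set 2 by 0.98 ± 0.13 on the log2 scale (adjusted p = 0.000466), with 45.7 CPM on average in set 1 and 89.2 in set 2. Epha7 (0.72 ± 0.13), Nrp2 (0.71 ± 0.20), Sema3d (0.65 ± 0.19), Sema6b (0.62 ± 0.13) and Slit2 (0.60 ± 0.12) followed, and Sema4d, Efna1, Sema4f, Plxna1 and Ephb4 were higher by 0.20 to 0.53. Cell type label and depth differ between the sets too and cannot be told apart from them. In the test of whether the treatment effect differed between sets 0 of the 58 were called by edgeR in any comparison, as were 0 of all genes, while the unadjusted p was under 0.05 in 7 of the 58 for the effect of LDHi, in 2 for that of lactate on LDHi and in 1 for the effect of both agents, against 694, 239 and 306 of all 17721 genes.

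Some counts carry a further limit. The authors' counting is not stated to use strand in the sources used here, so reads of a gene and of an antisense gene that shares its exons cannot be told apart. Among the members this touches Epha1 most, with 236 exon bases shared with Zyx, a focal adhesion gene of 41079 counts against 4677 for Epha1, and Ntn5, with 519 bases shared with Sec1. Ephb4 shares 33 exon bases with Zan.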

How the data were processed

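RNA-seq was performed on 12 libraries of Rax-GFP eye organoids, 4 per condition. The authors deposited raw read counts per gene for each library, and per the labels the reads were trimmed with cutadapt 1.13, aligned with STAR to mm10 and counted with HTSeq 0.6.1p1; DESeq2 1.14.1 is named as well. For the annotation release and the strand setting the sources used here give nothing. Gene names, biotypes and exon lengths were taken from GENCODE vM21 on the same build, which matched 54165 of the 54232 gene IDs (99.9%). The tables hold 0 mitochondrial counts.

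Counts were tested with edgeR 4.0.16 in R 4.3.3 (quasi-likelihood F test, TMM scaling, filterByExpr with the group) in 1 fit over all 12 libraries, with Benjamini-Hochberg adjustment over the 17721 genes tested and a threshold of 0.05. SEs were taken from the fold change and its F statistic. CPM and RPKM were computed from TMM-scaled library sizes. Between conditions, same-numbered libraries had deviations correlated at 0.329 to 0.634 (12 pairs), above 0.1 in every pair, and other-numbered libraries at -0.544 to 0.197, so the numbers were taken to pair the libraries; the pairing rests on the data, and the fit with this block is given beside the one without it. Replicates of a group differed by far more than sampling noise, at 27.6 to 134 times the expected chi-square. Depth limits the genes of low count only, and intervals are given as SE.

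The alternatives were the replicate block, RLE size factors, library totals, other filters on low counts, the library set as a term, each set alone, only the groups compared, each library left out, a fold change minimum and DESeq2 1.42.0 with and without the block; the closing section gives their effect. The genes named are those called in any comparison with or without the block and, in each family, the gene of the highest control level and that of the smallest p for LDHi against control; other members and partners are named where a list is accounted for, and were chosen after their values were seen. The members, the partner list and the marker lists were chosen with earlier results of these data known. The scripts were tested on simulated data. Efnb2, Ephb2 and Ntn3 were not analysed here, and 3 noncoding Plxna4 antisense genes were left out.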

Additional observations from a re-analysis of the deposited data

Results flagged for a closer look

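Among the 3 conditions of 20 guidance genes, 60 groups of 4 libraries, 1 held a library apart from the other 3 by the gap to its nearest neighbour. Sema4g was at 33.2 CPM in LDHi+lactate replicate 4, against 29.4 to 30 CPM in the other 3, a gap of 0.857 of the group's range and past the 95% limit of Dixon's test for 4 values. Chance alone flags about 1 in 20 such groups.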

How the results depend on the processing

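For LDHi against control, 6 genes were lower and 1 higher as first reported. The counts were 18 and 4 with the replicate block, 10 and 2 with the library set as a term, 10 and 2 with DESeq2, 21 and 5 with DESeq2 and the block, 2 and 0 with only the groups compared, 0 and 0 in set 1 alone, 1 and 0 in set 2 alone, 3 and 0 with a log2 fold change of at least 1, and 2 to 11 and 0 to 1 with 1 library left out. RLE size factors, library totals and other filters on low counts gave 6 and 1. Over all genes, the lower and higher counts were 386 and 161 of 17721 as first reported. They were 833 and 554 with the library set as a term, and 2068 and 1978 of 19471 with DESeq2 and the block. With only the groups compared they were 213 and 91 of 17077, and in set 2 alone 63 and 47 of 17282. They were 3 and 0 of 18482 in set 1 alone, and 258 and 97 with the fold change minimum. With 1 library left out they were 85 to 597 and 25 to 275. With the block, leaving out 1 replicate gave 12 to 19 lower and 1 to 3 higher, against 1003 to 1469 and 823 to 1424 of all genes. For LDHi+lactate against LDHi, 0 higher became 2 with the block (0 to 2 with 1 replicate left out), 1 with DESeq2 and 3 with DESeq2 and the block, which also called 1 lower. Over all genes, 3 to 104 were higher with the block and 1 replicate left out. DESeq2 with the block called 357 of 15604 higher and 136 lower. For LDHi+lactate against control, 0 lower became 15 with the block (1 to 8 with 1 replicate left out), 2 with DESeq2 and 18 with DESeq2 and the block, which called 1 higher. Over all genes, DESeq2 with the block called 1289 of 16248 lower and 1206 higher in this comparison. The set fits and the fits with a library left out have fewer libraries; the cause of the other differences was not tested. Over 39 results for single genes, 204 of 385 alternative values kept direction and call, 181 kept direction but lost the call, and 0 reversed. Results called without the block were set against every other fit except the blocked ones with a replicate left out. Those called with the block only were set against the unblocked fit, the blocked fits with 1 replicate left out and DESeq2. All were called from these same libraries, so the lack of reversals is no independent test. Apart from the calls named in the report, the block changed no other call among the 58 genes. Depth limits Epha6, Ntn5 and Plxnb3, which were not tested in edgeR. The DESeq2 counts are over all 61 genes fitted, some of which may have had no adjusted p, and the edgeR counts over 58.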
